A study of Mus musculus with 30 samples.

Results

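The hippocampus libraries were examined for 10 genes of the brain endothelium and the blood-brain barrier, namely Cldn5, Ocln, Tjp1, Esam, Cdh5, Pecam1, Flt1, Kdr, Tek and Slc2a1. They were taken by their symbols, each of which matched 1 Ensembl identifier, and they are 10 of the 21412 genes in the deposited table of normalized counts. RNA sequencing was done on hippocampus of male BALB/c mice, an inbred strain, with 5 mice in each of 6 groups and 1 library per mouse. The methods of the study describe the Ctr, LD and HD mice, which were 2 to 3 weeks old when obtained and were fed their diets for 11 weeks. The Ctr mice had feed with no added methylmercury (MeHg), the LD mice feed with 0.28 mg MeHg per kg and the HD mice feed with 5 mg MeHg per kg. The Se_Ctr, Se_LD and Se_HD mice received selenium by mouth besides no mercury, the low dose and the high dose, in what the series describes as a factorial design with 2 doses of mercury. The amounts of selenium and of mercury in the feed of these 3 groups and the time they were fed are not given in the sources used here, so that LD with Se_LD and HD with Se_HD are matched by their labels alone. No group carries a genetic change, and nothing in the labels ties a mouse of one group to a mouse of another. The normalized count is the number of reads on a gene divided by the size factor of the library, which makes libraries of different depth comparable. The libraries held between 5768208 and 11510521 reads on genes, with a median of 9351471.

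The endothelial cells that line brain capillaries are sealed to each other by tight junctions, so that most molecules enter the brain only through transporters in their membranes. Claudin-5 (Cldn5) and occludin (Ocln) span the membrane at the tight junction, zonula occludens-1 (Tjp1) ties them to the actin cytoskeleton, and Esam is an adhesion molecule of the immunoglobulin family at the same contacts. VE-cadherin (Cdh5) forms the adherens junction of endothelium, and Pecam1 (CD31) is an adhesion molecule at the contacts between endothelial cells. Flt1 and Kdr are receptors for vascular endothelial growth factor (VEGF), of which Kdr carries most of the growth signal and Flt1 largely acts as a trap for the ligand, and Tek (Tie2) is the receptor of the angiopoietins. Slc2a1 (GLUT1) carries glucose across the barrier. The genes Tjp1, Ocln and Slc2a1 are also expressed by other cells of the brain, and Cldn5, Cdh5, Pecam1, Kdr, Tek and Esam are widely used as endothelial markers. In RNA from whole tissue, fewer endothelial cells and less RNA per endothelial cell cannot be told apart.

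All 10 members are protein-coding genes. Positions are those of the NCBIM37 build, in which the reads were counted. The tight junction genes lie at chr16:18776940-18778353 (Cldn5, plus strand), chr13:101266462-101322673 (Ocln, minus strand), chr7:72441051-72516125 (Tjp1, minus strand) and chr9:37335663-37345904 (Esam, plus strand). Cdh5 lies at chr8:106625525-106668402 on the plus strand and Pecam1 at chr11:106515531-106611942 on the minus strand. The VEGF receptor genes are both on chromosome 5, at chr5:148373180-148537587 (Flt1, minus strand) and chr5:76328852-76374483 (Kdr, minus strand). Tek (chr4:94405980-94541667, plus strand) and Slc2a1 (chr4:118781316-118809935, plus strand) are both on chromosome 4. Levels per kb below use the length of the merged exons of each gene in that build.

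The stretches just before the start sites of 4 members are shown. Flt1 and Tjp1 were the pair of members that varied together most closely from mouse to mouse. Cldn5 and Tek belong to a set of members, chosen after the values were seen, whose correlations were all above 0. With each other, Cldn5 and Tek had an r of only 0.24. Each is the 250 bases before the start in RefSeq on the GRCm38.p6 build, written 5′ to 3′ on the strand of the gene. Capitals mark GGAA, the core that ETS-family factors bind, and GGGCGG, the core of the GC box, on either strand (TTCC and CCGCCC on the other one). The windows are chr5:147726012-147726261 for Flt1, chr7:65371245-65371494 for Tjp1, chr16:18776597-18776846 for Cldn5 and chr4:94739039-94739288 for Tek.
Flt1: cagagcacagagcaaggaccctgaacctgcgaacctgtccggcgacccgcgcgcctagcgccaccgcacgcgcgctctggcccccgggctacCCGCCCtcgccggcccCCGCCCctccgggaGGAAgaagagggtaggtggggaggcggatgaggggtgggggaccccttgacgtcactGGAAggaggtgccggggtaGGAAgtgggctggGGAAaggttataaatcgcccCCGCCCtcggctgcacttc
Tjp1: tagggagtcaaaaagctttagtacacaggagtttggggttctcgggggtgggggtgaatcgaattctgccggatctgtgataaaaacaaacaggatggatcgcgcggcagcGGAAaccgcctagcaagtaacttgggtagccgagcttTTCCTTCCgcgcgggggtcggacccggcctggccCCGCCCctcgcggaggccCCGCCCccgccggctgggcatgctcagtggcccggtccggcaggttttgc
Cldn5: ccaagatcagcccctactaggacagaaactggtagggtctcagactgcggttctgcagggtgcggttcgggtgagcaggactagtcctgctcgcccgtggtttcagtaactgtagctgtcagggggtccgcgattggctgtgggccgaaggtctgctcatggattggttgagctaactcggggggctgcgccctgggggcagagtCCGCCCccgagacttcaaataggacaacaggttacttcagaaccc
Tek: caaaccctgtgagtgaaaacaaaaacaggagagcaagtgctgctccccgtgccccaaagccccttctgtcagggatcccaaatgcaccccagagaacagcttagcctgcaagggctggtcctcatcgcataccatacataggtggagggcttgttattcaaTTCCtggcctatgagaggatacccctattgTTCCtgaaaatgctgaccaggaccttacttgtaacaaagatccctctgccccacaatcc

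G and C made up 70.4% of the window of Flt1, 63.2% of that of Tjp1, 59.6% in Cldn5 and 51.2% in Tek, against a median of 52.4% over all 32851 windows of the same length. The windows not printed had 66.4% (Slc2a1), 61.6% (Kdr) and 64.0% and 69.2% (the 2 windows of Ocln), so that a high share was not particular to Flt1 and Tjp1. GGAA was found 4 times in the Flt1 window, 3 times in that of Tjp1, 2 times in that of Tek and 0 times in that of Cldn5, and 93.4% of all windows held it. GGGCGG was found 3 times in Flt1, 2 times in Tjp1, 1 time in Cldn5 and 0 times in Tek, against 32.7% of all windows with at least 1. The Kdr window held 4 GGAA and 2 GGGCGG. The 2 copies of GGAA in Tek were both within CAGGAA (in 25.7% of all windows), and 2 of the 4 in Flt1 were within AGGAAG (29.5%), which is overlap and not a further match. The other motifs searched were CCGGAA (in 12.0% of windows), TATAAA (12.4%), GATAA (22.6%) and ACAAAG (16.5%), of which Flt1 held 1 TATAAA, Tjp1 1 GATAA and Tek 1 ACAAAG. Windows were found for 7 of the 10 members, and none for Esam, Cdh5 and Pecam1. These matches describe letters and not binding.

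All 10 members were well measured in every library, with between 69 and 2158 reads per gene and library. Per kb of exon, which allows levels to be compared between genes, Tjp1 was highest with 169 ± 21.7 normalized counts per kb (SD, n = 30), Cldn5 had 160 ± 26.2 and Slc2a1 157 ± 25.3. These 3 did not differ beyond their spread, since Tjp1 was above Cldn5 in 17 of 30 libraries and Cldn5 above Slc2a1 in 16 of 30. Flt1 followed with 55.8 ± 4.92 per kb and was below Slc2a1 in 30 of 30 libraries. Esam had 42.7 ± 5.68, Pecam1 38.3 ± 6.68 and Ocln 38.3 ± 6.55 per kb, and Flt1 was above Esam in 29 of 30 libraries. Pecam1 was above Ocln in 14 of 30, so that this pair had no order. Tek (29.8 ± 4.52), Cdh5 (28.2 ± 4.04) and Kdr (26.8 ± 4.32 per kb) were lowest, with Tek above Cdh5 in 15 and Cdh5 above Kdr in 21 of 30 libraries. The defining endothelial genes were thus present in every library. Of 32 further endothelial markers, such as Cd34 and Vwf, 0 had no read at all and 1 had a mean under 10 normalized counts, and their sum lay between 5499 and 7215 per library in all groups. In Ctr the highest gene of this list averaged 2596 and the next 1083, against a median sum of 6596. The sum thus says little of the other markers.

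**Figure D1:**
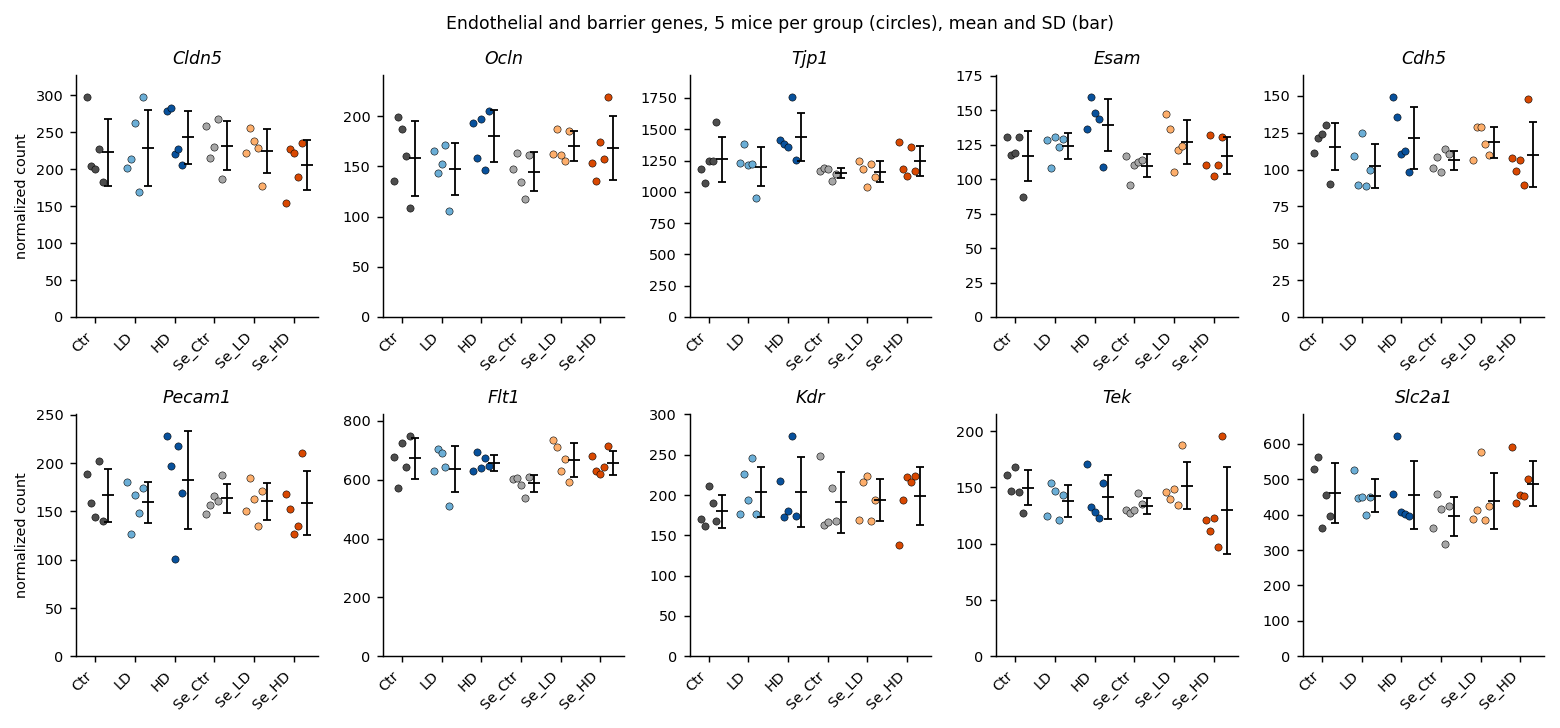
Normalized counts (vertical axes, from 0) of the 10 members by group (horizontal axes). Each circle is 1 mouse, and the bar to the right of each group gives the mean and SD of 5 mice. The groups overlap in nearly every panel, and the low and narrow Se_Ctr group of Flt1 (539 to 610) lies below all Se_HD mice (619 to 716).

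The members stayed within narrow bounds over the treatments. The ratio of the highest to the lowest of the 6 group means was between 1.13 (Kdr) and 1.27 (Esam), and the SD between mice of the same group was between 0.12 (Flt1) and 0.27 (Pecam1) on the log2 scale. HD had the highest group mean for Cldn5, Ocln, Tjp1, Esam, Cdh5 and Pecam1, and Se_Ctr the lowest for Ocln, Tjp1, Esam, Flt1 and Slc2a1. Whether these differences passed a test is given below for each comparison. In a test over all 6 groups, limma's F test on log2 of the normalized count plus 1, Tjp1 was the 1 member of 10 with an unadjusted p under 0.05, where 6.91% of the 21383 genes tested did so. After Benjamini-Hochberg adjustment over all genes, 0.444% of genes passed and 0 of the 10 members, with Tjp1 at an adjusted p of 0.666 in limma, 0.471 in edgeR and 0.351 in DESeq2. Tjp1 was no longer called without HD library 3, 9 or 21, Se_Ctr library 22 or Se_LD library 17 or 29. Over the 12 alternative settings and the fits that left out 1 library each, 0 members passed an adjusted p of 0.05 in any comparison, and the lowest adjusted p of any member was 0.263.

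The first comparison asks what the high dose of MeHg did without added selenium. No member was called in HD against Ctr, that is, 0 of 10 had both an F test over Ctr, LD and HD and the contrast at an unadjusted p under 0.05, against 5.09% of the 20031 genes tested. With an adjusted p, 0.13% of genes passed and 0 members did. The count at an unadjusted p was also 0 of 10 with edgeR and with DESeq2. Of the 10 differences, 7 were above 0 and 3 below, with a median of 0.11 on the log2 scale against 0.01 over all genes.

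Esam came nearest in HD. Its normalized counts were 130, 118, 119, 130 and 86.8 in the Ctr mice and 137, 160, 148, 144 and 109 in the HD mice. Of the HD mice, 4 of 5 were above the highest Ctr mouse and 1 was within the Ctr range, so that the groups overlapped. The log2 difference was 0.26 ± 0.14 (SE) with a 95% interval from -0.03 to 0.55 (limma, adjusted p = 0.671). Ocln had 135, 199, 187, 161 and 108 in Ctr and 194, 158, 198, 147 and 205 in HD, which overlapped widely. Its log2 difference was 0.21 with an interval from -0.14 to 0.56.

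Tjp1 had 1180, 1073, 1247, 1243 and 1557 normalized counts in the Ctr mice and 1417, 1380, 1361, 1761 and 1256 in the HD mice. The highest Ctr mouse, library 25, lay above 4 of the 5 HD mice. The log2 difference was 0.19 with an interval from -0.05 to 0.43 (limma, adjusted p = 0.728). Without Ctr library 25 the difference was 0.27 and both tests had a p under 0.05. Cldn5, the main claudin of brain endothelium, had 298, 205, 201, 228 and 183 in Ctr and 279, 283, 221, 227 and 205 in HD. Its difference was 0.13 with an interval from -0.19 to 0.46, so that neither a fall of 0.19 nor a rise of 0.46 on the log2 scale is outside it.

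For the adhesion genes, the HD difference was 0.07 with an interval from -0.25 to 0.38 for Cdh5 and 0.09 (from -0.29 to 0.47) for Pecam1. Pecam1 was spread widely in HD, between 100.9 in library 15 and 228 in library 3, with an SD of 51.0 against 14.9 to 33.1 in the other groups. Among the receptors, Flt1 had the narrowest interval of the 10 members, a difference of -0.03 from -0.24 to 0.18. Kdr had 0.16 (from -0.13 to 0.45) and Tek -0.09 (from -0.35 to 0.18). For the glucose transporter Slc2a1 the difference was -0.02 with an interval from -0.30 to 0.27. Over the 10 members, the widest intervals reached from 0.784-fold to 1.47-fold, which is the range of changes these 5 mice against 5 leave possible.

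The low dose was compared with Ctr in the same way. Of the members, 0 of 10 were called in LD against Ctr, where 1.46% of the 20031 genes were, and after adjustment 0.0% of all genes passed. The differences were 3 above 0 and 7 below, with a median of -0.07. Kdr had the highest, 0.17 with an interval from -0.12 to 0.47, and Cdh5 the lowest, -0.17 (from -0.48 to 0.14). LD library 26 was the lowest of all 30 libraries for Tjp1 (954) and Flt1 (511), and at the same time held 298 normalized counts of Cldn5, where the other LD mice had between 169 and 263.

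The selenium groups give the same comparison of MeHg on a diet labelled with selenium. In Se_HD against Se_Ctr, Flt1 and Slc2a1 were called, both higher, so 2 of 10 members, where 2.06% of the 19679 genes tested were called. After adjustment 0.0% of genes and 0 members passed, with an adjusted p of 1.00 for each member in limma and at least 0.998 in edgeR and DESeq2. Flt1 had 604, 607, 581, 539 and 610 normalized counts in the Se_Ctr mice and 680, 629, 619, 643 and 716 in the Se_HD mice. All 5 Se_HD mice were above all 5 Se_Ctr mice. The log2 difference was 0.16 with an interval from 0.02 to 0.30. Flt1 was called in 10 of 12 alternative settings and in 9 of 15 fits without 1 library, the exceptions being Se_Ctr libraries 16 and 22, Se_LD libraries 5 and 11 and Se_HD libraries 6 and 30, with differences between 0.13 and 0.18.

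Slc2a1 had 363, 459, 415, 318 and 424 in the Se_Ctr mice and 592, 434, 457, 452 and 502 in the Se_HD mice. Here 2 of the 5 Se_HD mice were above the highest Se_Ctr mouse and the groups overlapped. The log2 difference was 0.30 with an interval from 0.06 to 0.54. The call held in 5 of 12 alternative settings and in 6 of 15 fits without 1 library. It was lost without Se_Ctr library 4, 16 or 22, Se_LD library 11 or 29, or Se_HD library 6, 18, 24 or 30, and the lowest difference among these fits was 0.23. The other 8 members had differences between -0.17 (Cldn5, interval from -0.43 to 0.09) and 0.21 (Ocln, from -0.04 to 0.46). Tek had -0.08, and without Se_HD library 30, the highest for Tek, it had -0.24 and was called.

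In Se_LD against Se_Ctr, Flt1 was again called, 1 of 10 members where 1.46% of genes were called, and after adjustment 0.0% of genes and 0 members passed. The Se_LD mice had 737, 710, 631, 671 and 593 normalized counts of Flt1. Of these, 4 of 5 were above the highest Se_Ctr mouse. The log2 difference was 0.18 with an interval from 0.04 to 0.32. The call was lost in the fit without a trend and without Se_Ctr library 16 or 22 or Se_LD library 5 or 11, with a lowest difference of 0.14. Ocln had 0.24 with an interval from -0.01 to 0.49 and Esam 0.20 (from -0.03 to 0.43), and neither was called. The Se_LD and Se_HD comparisons share the 5 Se_Ctr mice, so that their values are not independent.

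**Figure D2:**
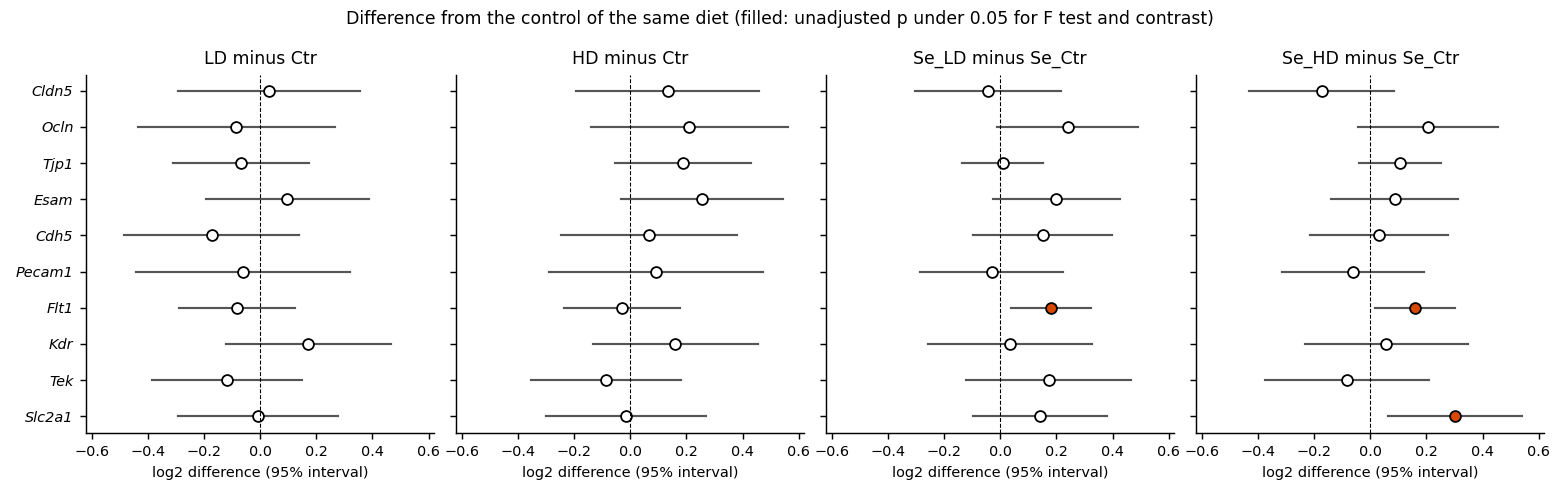
Log2 differences (horizontal axes) of the 10 members from the control of the same diet, with 95% intervals as lines, for 4 comparisons of 5 mice against 5. Filled circles mark an F test and a contrast with an unadjusted p under 0.05: Flt1 in Se_LD (0.18) and Se_HD (0.16) and Slc2a1 in Se_HD (0.30), and 0 of these passed after adjustment over all genes.

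The low Flt1 in Se_Ctr also showed against the Ctr mice, which had 676, 572, 725, 642 and 749 normalized counts. Flt1 was the 1 member of 10 called in Se_Ctr against Ctr, with a contrast at an unadjusted p under 0.05 in the fit of all 30 libraries, where 4.0% of the 21383 genes were called. The difference was -0.19 on the log2 scale with an interval from -0.36 to -0.02. After adjustment 0.0% of genes and 0 members passed (adjusted p = 1.00 for Flt1). The groups overlapped, with Ctr library 7 at 572 within the Se_Ctr range. The call was lost without Ctr library 13 or 25 or Se_Ctr library 22, and the difference lay between -0.25 and -0.15 over all fits without 1 library. In the same comparison, of 5 erythrocyte genes, which mark blood left in the tissue, 2 were called, both lower, with a list median of -0.85, and their sum was between 159 and 303 per mouse in Se_Ctr and between 233 and 636 in Ctr. With edgeR and with DESeq2, 4 of the 5 were called, all lower. Of 15 pericyte and smooth muscle genes, 2 were called, both lower, with a median of -0.23. Of 9 fibroblast and meningeal genes, 1 was called, and 3 with edgeR and with DESeq2, all lower. The part of these lists in the Flt1 value was not tested.

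Whether the high dose acted differently on the selenium diet was tested by an interaction of selenium and high dose. Of the members, 0 of 10 were called where 4.77% of genes were, and after adjustment 0.0% of genes passed. The count of members was 0 as well with edgeR and DESeq2. For Flt1 the interaction was 0.19 with an interval from -0.05 to 0.43 and for Slc2a1 it was 0.32 (from -0.06 to 0.70), each with an adjusted p of 0.997 in limma. The differences called in Se_HD were therefore not shown to differ from those in HD. Cldn5 had the lowest interaction, -0.31 with an interval from -0.73 to 0.12, and went from 0.13 in HD to -0.17 in Se_HD.

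Set directly against HD, the Se_HD mice had lower values in 9 of the 10 members, with a median of -0.15 against -0.01 over all genes. Tjp1 and Esam were called, both lower, so 2 of 10 where 8.38% of genes were called, and 0.327% of genes and 0 members passed after adjustment. Tjp1 had 1396, 1182, 1125, 1361 and 1167 normalized counts in Se_HD. Of these, 3 of 5 were below the lowest HD mouse (1256). The difference was -0.20 with an interval from -0.40 to -0.0027 (limma, adjusted p = 0.590). Esam had 110, 132, 103, 111 and 131 in Se_HD, of which 1 was below the lowest HD mouse, and a difference of -0.24 with an interval that ended just below 0 (limma, adjusted p = 0.596). Both calls stood at the threshold and both were lost with the library-number set (consecutive libraries, 1 of each group) as a covariate. Tjp1 was called in 15 and Esam in 9 of 30 fits without 1 library. Of the HD and Se_HD libraries, Tjp1 lost its call without HD library 3 or 21 or Se_HD library 12, 18 or 30, and Esam without HD library 3, 9, 15 or 21 or Se_HD library 6, 18 or 24, and the other losses came from libraries of the other groups, which enter through the shared spread. Without HD library 21, the highest for Tjp1 at 1761, the Tjp1 difference was -0.12 and that of Esam -0.23. In the same comparison 9 of 10 microglia genes were called lower. Their sum was between 3795 and 9001 per mouse in HD and between 3078 and 3618 in Se_HD, and 0 of the 10 were at 0. Of 9 astrocyte endfoot genes 3 were called, all lower, with a median of -0.19, and their sums did not overlap, at 20829 to 32179 in HD and 18345 to 19939 in Se_HD. The part of either list in the Tjp1 and Esam values was not tested.

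The remaining contrasts pooled mice over the diets or the doses. With both diets pooled, Tjp1 was higher at the high dose, 1 of 10 members called where 9.09% of genes were, with a difference of 0.15 and an interval from 0.01 to 0.29. Adjusted p-values under 0.05 were reached by 0.21% of genes and 0 members, with Tjp1 at 0.517. The Tjp1 call was lost without Ctr library 1 or 7, HD library 21, Se_Ctr library 22 or Se_HD library 6 or 24. In the same contrast 10 of 10 microglia genes were called higher, with a median of 0.45, and 4 of 9 astrocyte endfoot genes, all higher, with a median of 0.17. The sum of the microglia genes was between 3795 and 9001 per mouse in HD and 2957 and 3200 in Ctr. On the selenium diet it overlapped, at 3078 to 3618 in Se_HD and 2879 to 3477 in Se_Ctr. The sum of the endfoot genes was between 20829 and 32179 per mouse in HD and 18417 and 22440 in Ctr, and between 18345 and 19939 in Se_HD and 17252 and 20125 in Se_Ctr. Of 9 fibroblast and meningeal genes 2 were called, both higher, with a median of 0.39, and 5 with edgeR and 4 with DESeq2, all higher. The part of these lists in the Tjp1 value was not tested. Esam (0.17, interval from -0.0012 to 0.35) and Ocln (0.21, from -0.0075 to 0.42) missed the threshold narrowly, and each was called in some of the fits without 1 library, Esam in 9 and Ocln in 8 of 30. Each of the other 7 had an interval that held 0, and Flt1 had the narrowest, from -0.05 to 0.18. At the low dose, pooled in the same way, 0 of 10 members were called where 2.69% of genes were, with 0.0% of genes past the adjusted threshold. The differences lay between -0.05 (Pecam1) and 0.15 (Esam, interval from -0.02 to 0.32).

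With the 3 doses pooled, the selenium label went with a lower Tjp1, 1 of 10 members called where 6.62% of genes were, and 0.0% of genes and 0 members passed after adjustment. The difference was -0.12 with an interval from -0.23 to -0.01. The call was lost in 2 of 10 alternative settings and in 12 of 30 fits without 1 library, HD library 21 (-0.09) and Ctr library 25 among them. The other 9 differences lay between -0.10 (Esam) and 0.004 (Ocln). Of the 10 microglia genes, 6 were called in this contrast, all lower. Of 9 astrocyte endfoot genes 4 were called, all lower, with a median of -0.17, and of 5 erythrocyte genes 2, both lower, with a median of -0.41, which became 4 with edgeR and with DESeq2 and 1 with quantile normalization. The part of these lists in the Tjp1 value was not tested.

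The members were next compared from mouse to mouse within the groups, with each group mean subtracted, over 30 mice. These correlations are descriptions, since the 2 genes of each pair come from the same library, dissection and depth. Over the 45 pairs the median Pearson r was 0.09, and 31 pairs were above 0. Of the 7 members least shared with other brain cells (Cldn5, Pecam1, Flt1, Kdr, Tek, Cdh5 and Esam), 17 of 21 pairs were above 0 with a median of 0.12. Within these, 5 genes chosen after the values were seen, Cldn5, Esam, Cdh5, Pecam1 and Tek, were above 0 in 10 of 10 pairs, with r between 0.12 and 0.58 and a median of 0.41. Because of that choice the count is no result. Esam and Tek had the lowest r, 0.12 (Spearman rho = -0.01). Esam and Cdh5 had r = 0.44, which fell to 0.20 without the 2 farthest mice. Cdh5 and Pecam1, both at endothelial contacts, had r = 0.58 (Spearman rho = 0.60, r = 0.44 without the 2 mice farthest from the median in Cdh5). Cdh5 and Tek had r = 0.55, which fell to 0.27 without the 2 farthest mice and so rests in part on them. Se_HD library 30 had the highest Tek (196), Cdh5 (148), Ocln (220) and Pecam1 (211) of its group.

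The VEGF receptors Flt1 and Kdr were outside these 5 genes by that choice. Kdr had r between 0.05 and 0.18 with each of the 5, and Flt1 between -0.16 and 0.01. Flt1 varied most closely with Tjp1, with r = 0.69 (rho = 0.62, and r = 0.55 without the 2 farthest mice). Tjp1 in turn ran against Cldn5 with r = -0.42 (rho = -0.39, r = -0.42 without the 2 farthest mice) and against Tek with r = -0.37. Kdr ran against Slc2a1 with r = -0.40, and its r without the 2 farthest mice was -0.29. The r of Flt1 with Tjp1 stayed between 0.58 and 0.74 whichever mouse was left out, and was 0.64 to 0.69 with a pseudocount of 10 or quantile normalization.

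**Figure D3:**
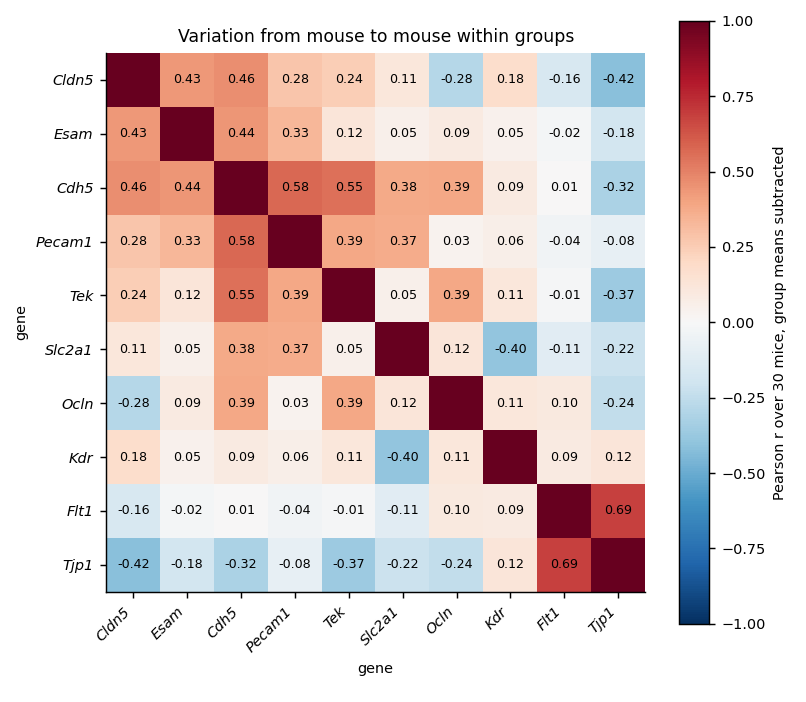
Pearson correlations of log2 normalized counts between the 10 members (both axes) over 30 mice, with the group means subtracted. Red stands for positive and blue for negative values on a scale from -1 to 1: the block of Cldn5, Esam, Cdh5, Pecam1 and Tek, chosen after the values were seen, is positive throughout, and Flt1 and Tjp1 have the highest value of any pair (0.69).

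The mean of the 7 endothelial members in each mouse was also compared with every other gene that averaged 10 or more normalized counts, 14286 in all. The 10 genes most like it were Scara3 (r = 0.82), Limd1 (0.73), Vtn (0.72), Pdgfrb (0.72), Naaa (0.72), Mpzl1 (0.71), Ppox (0.70), Aifm2 (0.70), Fah (0.70) and E530011L22Rik (0.70), over 30 mice. An r of at least 0.5 was reached by 2.39% of the genes. Between 4 and 10 of the 10 stayed among the 10 when 1 mouse was left out, so the order is loose. By list, the median r was 0.55 for 15 pericyte and smooth muscle genes, 0.39 for 9 genes of vascular fibroblasts and meninges, 0.31 for 31 other endothelial markers, 0.31 for 5 erythrocyte genes, 0.27 for 10 microglia genes, 0.26 for 17 barrier transporters and 0.26 for 14 genes of the Wnt pathway. It was 0.19 for 16 other junction genes, 0.10 for 9 astrocyte endfoot genes, 0.05 for 10 choroid plexus genes, 0.03 for 6 genes of endothelial activation, 0.03 for 15 genes of the VEGF and angiopoietin system, -0.15 for 9 marker genes of hippocampal tissue and 0.01 over all genes.

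The group ranges of the 7-gene mean overlapped. On the log2 scale relative to the mean of all mice, it was 0.00 ± 0.13 (SD, n = 5) in Ctr, -0.02 ± 0.08 in LD, 0.09 ± 0.15 in HD, -0.06 ± 0.06 in Se_Ctr, 0.04 ± 0.08 in Se_LD and -0.05 ± 0.18 in Se_HD.

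The members act together with ligands and partners, which were counted from lists of the same pathways. Of 15 genes of the VEGF and angiopoietin system tested in HD against Ctr, 2 were called, both higher, Pdgfb and Angpt1, where 5.09% of all genes were called. In the same comparison 10 of 10 microglia genes were called higher, as given below with Vcam1. Their part in the Pdgfb, Angpt1, Ctla2a and Tm4sf1 values was not tested. Pdgfb, the factor by which endothelium recruits pericytes, had 130, 127, 119, 114 and 93.5 normalized counts in Ctr and 133, 192, 163, 169 and 170 in HD. All 5 HD mice were above all 5 Ctr mice. The difference was 0.50 on the log2 scale (limma, adjusted p = 0.194). In Se_HD against Se_Ctr, Pdgfb had a difference of 0.20 and was not called. With the diets pooled the high dose difference of Pdgfb was 0.35, with an adjusted p of 0.0841 in limma, 0.0687 in edgeR and 0.0236 in DESeq2.

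Angpt1, the ligand that activates the receptor Tek, had 77.3, 61.4, 97.0, 53.9 and 118 normalized counts in Ctr, between 51.5 and 68.1 in LD, and 107, 132, 92.8, 240 and 104 in HD. The HD mice overlapped with the upper 2 Ctr mice, and all 5 HD mice were above all 5 LD mice. Over the 6 groups Angpt1 passed after adjustment (limma F test, adjusted p = 0.0274). HD library 21 had more than any other mouse, at 240, and without it the adjusted p was 0.136. The adjusted p over the 10 alternative settings lay between 2.4e-05 and 0.0849. In HD against Ctr the difference was 0.69, and 0.46 and still called without library 21. Tek, its receptor, had a difference of -0.09 in the same comparison. In Se_HD the Angpt1 difference was 0.19 and not called, and the interaction was -0.50 (limma, adjusted p = 0.997). The interaction includes HD library 21, which makes it more negative.

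Of 32 other endothelial markers, 2 were called in HD against Ctr, both higher, Ctla2a and Tm4sf1, with a list median of 0.07. Over all genes 5.09% were called, and the count of markers was 4 with edgeR, 3 with DESeq2 and 1 without HD library 21. Ctla2a, which encodes a cysteine protease inhibitor, had between 39.8 and 68.0 normalized counts in Ctr and 86.8, 120, 64.6, 213 and 66.3 in HD. In the selenium groups it had between 33.2 and 57.0 in Se_Ctr and between 65.4 and 90.9 in Se_HD, with no overlap. The difference was 0.90 in HD and 0.79 in Se_HD, and the interaction was -0.11 (limma, adjusted p = 0.997). Both the HD difference and the interaction include HD library 21 (213), which raises the first and lowers the second. With both diets pooled the difference was 0.85 with an adjusted p of 0.0153 in limma, which made Ctla2a the 1 of these 32 markers past the adjusted threshold. Without HD library 21 it was 0.71 with an adjusted p of 0.0199, and the adjusted p lay between 0.00037 and 0.0446 over the 10 alternative settings. Ctla2a has a near-identical neighbour, Ctla2b, and reads shared between them could have been counted for either. Tm4sf1, a membrane protein of endothelium, had 88.1 to 127 in 4 HD mice and 357 in library 21, against 63.1 to 105 in Ctr. Its HD difference was 0.69 and fell to 0.33 without library 21, where it was no longer called.

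Genes of endothelial activation and leakage were the vascular list with the highest median in HD, 0.66 over 10 genes tested, and 4 were called, all higher, where 5.09% of all genes were called. The count was 5 with edgeR and 3 with DESeq2 or without HD library 21, where the median was 0.33. Of the 12 genes on the list 6 had a mean under 10 normalized counts, among them Lrg1 and Lcn2, the 2 called besides Vcam1 and Icam1, so that the median rests in part on genes with few reads. Plvap, a protein of leaky endothelium, had 51.0 ± 14.7 in Ctr and 39.1 ± 13.2 in HD (SD, n = 5), with a difference of -0.41 and an interval from -0.97 to 0.16, and Tnfaip3, an inhibitor of NF-kB signalling, had 44.3 ± 9.82 and 36.1 ± 6.65, with -0.28 (from -0.71 to 0.15). Neither was called, and these 4 genes were named after their values were seen. Vcam1, by which leukocytes attach to endothelium, had between 219 and 378 normalized counts in Ctr and 385, 395, 327, 877 and 332 in HD. Library 21 stood far above the other mice. The difference was 0.60, and 0.34 and still called without library 21. In Se_HD it had between 330 and 429, above all Se_Ctr mice (250 to 302), with a difference of 0.42 (limma, adjusted p = 0.948). Pooled over the diets the Vcam1 difference was 0.51 with an adjusted p of 0.0831 in limma, 0.0496 in edgeR and 0.0160 in DESeq2. Icam1, with the same role, was low, between 4.51 and 17.0 in Ctr and between 14.0 and 40.0 in HD, with a difference of 1.16 (limma, adjusted p = 0.304) in HD and 0.32, not called, in Se_HD. Vcam1 and Icam1 are also made by other cells, and in HD against Ctr 10 of 10 microglia genes were called higher, with a median of 0.80. Their sum lay between 2957 and 3200 per mouse in Ctr and between 3795 and 9001 in HD. Without library 21, 9 of 10 microglia genes were called. In Se_HD against Se_Ctr, 0 of the 10 were called, with sums from 3078 to 3618 and from 2879 to 3477, and their part in the HD values was not tested.

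**Figure D4:**
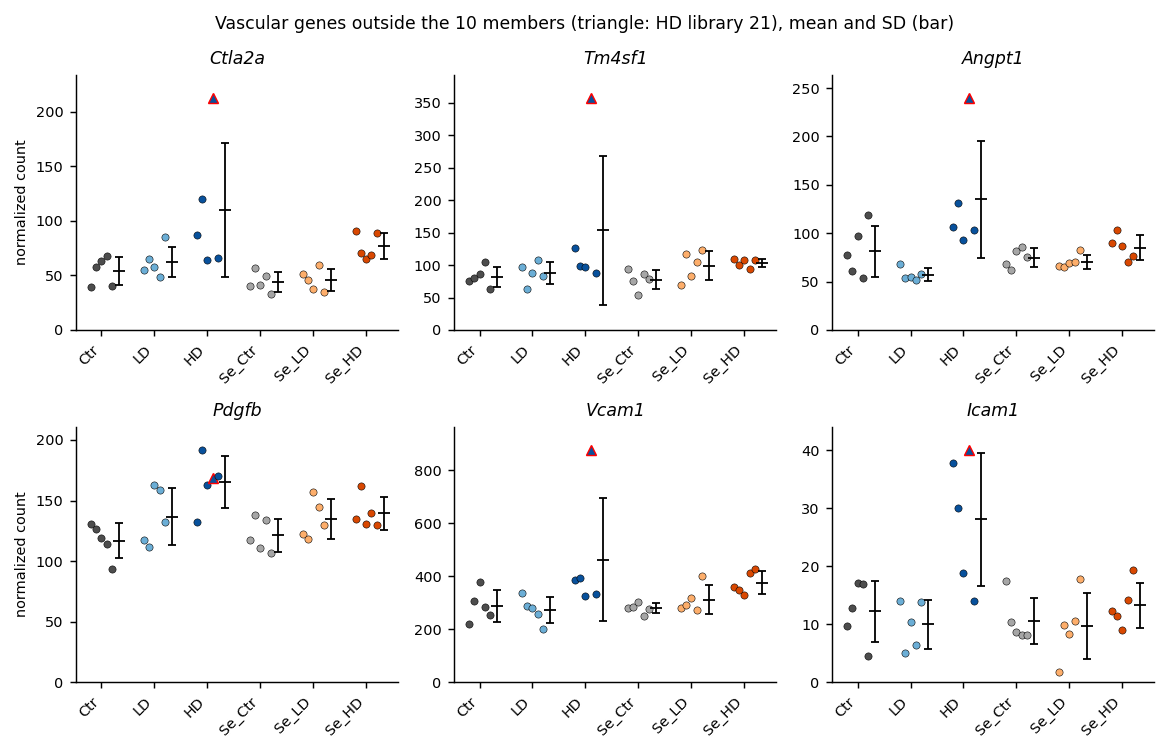
Normalized counts (vertical axes, from 0) of 6 vascular genes outside the 10 members by group (horizontal axes), with each mouse as a point and the mean and SD of 5 mice as a bar. The triangle marks HD library 21, which holds 357 of Tm4sf1, 240 of Angpt1 and 877 of Vcam1 and widens the SD of HD, whereas Ctla2a is also higher in Se_HD (65.4 to 90.9) than in Se_Ctr (33.2 to 57.0).

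Few other genes of the barrier were called in HD against Ctr, where 5.09% of all genes were. Of 18 other junction genes 1 was called, F11r (JAM-A) with 0.35 (limma, adjusted p = 0.558), and this call was lost in 8 of 15 fits without 1 library, that without library 21 among them, while edgeR and DESeq2 each called 2 junction genes. Of 18 barrier transporters 0 were called and of 14 genes of the Wnt pathway that maintains the barrier 0 were called, with medians of 0.09 and 0.04. Of 15 pericyte and smooth muscle genes 0 were called (median -0.07), and of 9 astrocyte endfoot genes 1, the water channel Aqp4 (0.97, and 0.55 without library 21). In LD against Ctr, 0 of 15 genes of the VEGF system, 0 of 18 junction genes, 0 of 32 endothelial markers and 1 of 18 transporters were called, against 1.46% of all genes. In Se_HD against Se_Ctr, where 2.06% of all genes were called, 4 of 9 fibroblast and meningeal genes were called, all higher, such as Ogn (1.27), and 1 of 15 pericyte and smooth muscle genes, Anpep (0.84), with 3 of the 15 in edgeR and 2 in DESeq2. The sum of the 9 fibroblast and meningeal genes was between 5413 and 7647 per mouse in Se_HD and between 2279 and 4931 in Se_Ctr, without overlap. In the HD mice the highest gene of this list averaged 4038 normalized counts and the next 528, so that such sums rest largely on a single gene. The part of this list in the Flt1 and Slc2a1 values of the selenium groups was not tested. The 10 choroid plexus genes varied widely within every group, with sums from 1302 to 54847 per mouse, and 0 of 10 were called in these comparisons.

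In Se_HD against HD, 4 of 32 endothelial markers were called, all lower, and 3 of 18 transporters, all lower, where 8.38% of all genes were called. With edgeR and with DESeq2, 7 of the 32 markers were called, all lower, and with quantile normalization 1 of the 18 transporters. Fli1, an ETS factor of endothelium, had a difference of -0.52 (limma, adjusted p = 0.348), and Slc38a5, a glutamine transporter of the barrier, -0.51 (limma, adjusted p = 0.460). Without HD library 21, 1 endothelial marker and 1 transporter were called. The microglia and astrocyte endfoot genes that were lower in this comparison are given above with Tjp1 and Esam, and their part in these values was not tested either. Vwf, the carrier of clotting factor in endothelium, was lower in Se_Ctr than in Ctr, with 66.2 to 86.0 against 89.4 to 157 normalized counts and no overlap (-0.70, limma, adjusted p = 1.00). In the same comparison 3 of 32 markers were called, against 4.0% of all genes, and of the 3 Emcn was higher (0.44). Abcb1a, the efflux pump P-glycoprotein, was lower too, at 212 to 253 against 255 to 310 without overlap, with a difference of -0.26 (limma, adjusted p = 1.00). The part of the erythrocyte, pericyte and fibroblast genes called lower in Se_Ctr, given above with Flt1, was not tested for Vwf and Abcb1a. For the pooled selenium contrast, 5 of 32 endothelial markers were called, all lower, against 6.62% of all genes, and 0 passed after adjustment. The microglia, astrocyte endfoot and erythrocyte genes called lower in that contrast are given above with Tjp1. Their part in these markers was not tested.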

How the data were processed

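RNA of hippocampus from 30 mice was sequenced by the authors, 1 library per mouse. Per the labels and the study's methods, reads were trimmed (Trim Galore 0.4.2), mapped to NCBIM37 with HISAT2 and assigned to genes with featureCounts. The deposited values are signal values: read counts that the authors had divided by DESeq2 size factors, after dropping features with under 10 reads in all. Multiplying back gave whole reads for 100% of values within 0.01 reads. Symbols were found for 21326 of 21412 identifiers.

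The log2 of each value plus 1 was tested with limma 3.58.1 (with trend, R 4.3.3) in genes whose sum reached 10, in 3 fits: Ctr, LD and HD, the selenium groups, and all 30 libraries. A gene was called when its contrast had an unadjusted p under 0.05 and, within 1 diet, the F test over the 3 groups did too, which follows the study's order of tests. Adjustment was by Benjamini-Hochberg across every gene of a fit, and intervals are 95% intervals of the model. As alternatives, the pseudocount was set to 0.1 or 10, genes were kept at a mean of 10 or without a filter, values were rescaled by TMM or quantiles, the library-number set was a covariate, the trend was dropped, the F condition was dropped, all libraries entered 1 fit, edgeR 4.0.16 or DESeq2 1.42.0 took the recovered reads, or 1 library was left out. The fit of Ctr, LD and HD was tried on simulated data for HD against Ctr, with limma and edgeR. The other fits and contrasts and DESeq2 were not. Tables and plots used Python 3.11.15, pandas 2.3.3, numpy 2.4.6 and matplotlib 3.10.9.

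The members and lists were chosen with earlier results of these data known. All 10 members are named. From each other list and contrast, the rule names at most 2 called genes, those with the lowest p and a mean of 10 or more, along with the 10 genes most like the endothelial mean. Outside this rule, Lrg1, Lcn2, Plvap and Tnfaip3 were named after their values were seen, and Cd34 as an example of its list. One gene that the rule would name is not reported here, for a reason unrelated to its values. The p-values are from tests of differences between group means, judged against the spread between these mice. Depth was lowest in Ctr library 13, at 5768208 reads. It also differed by group, with a median of 7119788 reads in Ctr, 8185465 in LD and 10159514 in HD. The medians were 9873274 in Se_Ctr, 9600570 in Se_LD and 9406503 in Se_HD. Contrasts with Ctr therefore set shallower libraries against deeper ones, which bears most on genes with few reads.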

Additional observations from a re-analysis of the deposited data

Results flagged for a closer look

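In groups of 5 mice, a mouse was singled out where its gap to the nearest other mouse was more than 0.71 of the range of the group. Of 96 gene and group combinations (10 members and 6 named vascular genes in 6 groups), 10 held such a mouse. For independent and normally distributed values about 1 in 20 would, or 4.8. The 6 vascular genes were named because they were called in these data, and genes of the same library are not independent. The count of 10 against 4.8 is therefore no result. Among the members, Esam in Se_Ctr library 10 was low (95.9 normalized counts, gap 0.711 of the range), Tek was high in Se_LD library 29 (188, 0.729) and Se_HD library 30 (196, 0.743), and Slc2a1 was high in HD library 9 (622, 0.723) and Se_LD library 17 (576, 0.793). Of the vascular genes, HD library 21 was high for Vcam1 (877, 0.876), Tm4sf1 (357, 0.856) and Angpt1 (240, 0.736), Se_LD library 29 for Angpt1 (82.8, 0.726) and Se_Ctr library 4 for Icam1 (17.4, 0.744).

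The effect of the high dose differed between the diets, at an unadjusted p under 0.05 in limma and at an adjusted p of at least 0.775, for 6 of 41 genes (the members and the genes named by the rule), of which none passed after adjustment. The rule takes called genes of this contrast too, so that the share is no result, and 4.77% of all genes were called. The difference of Se_HD from Se_Ctr minus that of HD from Ctr was -0.857 for Slc38a5, 0.800 for Slc22a8, an organic anion transporter of the barrier, -0.874 for Aqp4, 0.456 for the pericyte gene Atp13a5, 0.728 for the smooth muscle gene Myh11 and -1.01 for Ly6a. Without HD library 21 the value of Ly6a was -0.50, and it was not called. HD library 21 was also the highest HD mouse for Aqp4, at 9364 normalized counts where the HD median was 2704. That library makes the Aqp4 value given here more negative. In the same contrast 9 of 10 microglia genes were called lower, with a median of -0.82, and 8 without HD library 21. Of 15 pericyte and smooth muscle genes, the list of Atp13a5 and Myh11, 3 were called, all higher, with a median of 0.25, and 4 with edgeR and with DESeq2. The part of either list in these values was not tested.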

How the results depend on the processing

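Of 3880 pairs of a member result (110 in all) and an alternative setting or left-out library, 3745 kept their side of the threshold, 102 lost a call, 33 gained one and 0 called values turned in direction. Only 9 of the 110 results were called in the main fit, so that most pairs kept their side by staying uncalled. All 102 losses came from these 9 results. Without Se_Ctr library 22, 0 members were called in the comparisons that use it. Members past the adjusted threshold stayed at 0 in every pair. Of the counts of called members, Se_HD against Se_Ctr went from 2 to 1 with pseudocounts of 0.1 and 10, a mean filter of 10, TMM, all 30 libraries in one fit, edgeR and DESeq2, and to 0 without the trend. Se_LD against Se_Ctr went from 1 to 0 without the trend. Se_HD against HD went from 2 to 1 with TMM, quantile normalization, edgeR and without the trend, and to 0 with the library-number set as covariate. The pooled high dose went from 1 to 2 with a pseudocount of 0.1 and a mean filter of 10. The pooled selenium contrast went from 1 to 0 with TMM and without the trend, and the test over 6 groups from 1 to 0 without the trend. The causes were not tested.

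Leaving out 1 library gave 0 to 1 called members in HD against Ctr, 0 to 0 in LD against Ctr, 0 to 2 in Se_HD against Se_Ctr, 0 to 1 in Se_LD against Se_Ctr, 0 to 1 in Se_Ctr against Ctr, 0 to 2 in Se_HD against HD, 0 to 2 for the pooled high dose, 0 to 1 for the pooled low dose, 0 to 1 for pooled selenium, 0 to 1 for the interaction and 0 to 2 over 6 groups. In the interaction, Cldn5 was called without Ctr library 1, Flt1 without Ctr library 7 and Slc2a1 without Ctr library 13 or HD library 9. The library-number set, 1 library of each group, is the nearest to a block that the labels allow, and nothing says that it marks a batch or a pair.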
